A study of Mus musculus with 4 samples.

Results

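Translation initiation and elongation factors, the proteins that load the ribosome onto a messenger RNA and carry it along the coding sequence, were examined at the transcript level in mouse LSK cells with a high or a low level of c-Myc protein. The members are the probe sets of the array annotated to 1 gene only, whose symbol starts with Eif and a digit from 1 to 6, or with Eef1 or Eef2. This gave 155 of 45037 probe sets, standing for 58 of 18193 genes. A further 8 probe sets that the annotation shares between a factor and another gene were left out. Eif1, Eif2s1, Eif3g, Eif4g1 and Eef1g were not analysed here.

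LSK cells (lineage-negative, Sca1-positive, c-Kit-positive marrow cells) hold the haematopoietic stem cells and multipotent progenitors. The labels describe the mice as wild type of a B6/129 background, and give neither age nor sex. Femur marrow was sorted on c-Myc-eGFP into Hi (2 arrays) and Lo (2 arrays), and both groups carried this fluorescent fusion. The labels do not say whether replicates came from separate mice, so p-values measure the spread between these samples, which may be technical. From each sample, 5 ng of total RNA was amplified, labelled with biotin and hybridised to an Affymetrix mouse 3′ expression array. Values below are log2 intensities of the deposited signal, differences are Hi minus Lo on that scale, and ± gives limma's moderated standard error.

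In initiation, eIF2 brings the first methionyl-tRNA to the small ribosomal subunit, eIF1, eIF1A and eIF3 help it scan, and eIF4F (eIF4E on the cap, the helicase eIF4A and the scaffold eIF4G) recruits the messenger RNA. eIF2B recharges eIF2 with GTP, and stress kinases block that step by phosphorylating eIF2 alpha. In elongation, eEF1A delivers aminoacyl-tRNA, the other eEF1 subunits recharge it, and eEF2 moves the ribosome on. c-Myc is known as a regulator of genes of protein synthesis, and Eif4e is among its best-known targets.

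Most factor transcripts differed little between Hi and Lo. By the brightest probe set of each gene, 29 of the 58 genes had a positive and 29 a negative difference, with a median of 0.00 (0.0014) against 0.03 over all genes. Of all genes, 53.6% were positive. Of the 155 member probe sets, 96 were positive and 59 negative (61.9% positive, median 0.0758), against 55.3% positive and a median of 0.0412 over all probe sets. By the brightest probe set, 41 of the 58 genes had a difference under 0.25 in size and 3 had one above 0.5. These 3 were the eEF1-named gene Eef1e1, the eIF2B subunit gene Eif2b3 and the eIF4E repressor gene Eif4ebp1. How many of all genes met these cuts was not counted, so the counts do not set the factors apart from other genes. limma called 0 member genes and 0 member probe sets higher or lower at an adjusted p of 0.05, as it called 0% of all probe sets in either direction. Refitted over genes, it called 0 of the 58 again, while 1.04% of all genes were called higher and 1.18% lower with 1 probe set per gene, and 1.39% higher and 1.52% lower with the mean of a gene's probe sets. The smallest adjusted p among the member probe sets was 0.0947. At an unadjusted p under 0.05, 5 of 58 genes were on the higher side (8.62%, against 9.25% of all genes) and 0 on the lower side (against 11% of all genes). The 5 genes were Eef1e1, Eif2b3, Eif4ebp1, Eif5a2 and Eif4e. Their number was 1 without Hi replicate 1 and 0 without Hi replicate 2, where a lone Hi array is assumed to vary like the Lo arrays, and 9 when the probe sets of each gene were averaged.

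The Hi arrays both exceeded the Lo arrays in 21 of the 58 genes (36.2%, against 30% of all genes) and lay below them in 11 (19.0%, against 25.4%). After the arrays were shifted to 1 median, only 4 genes lay below. Over the 155 probe sets, 21 were on the higher side at an unadjusted p under 0.05 (13.5%, against 9.05% of all probe sets) and 1 on the lower side (0.645%, against 8.91%). Of the probe sets, 58 had both Hi arrays above both Lo arrays (37.4%, against 29.3%) and 20 below (12.9%, against 22%). Several of these share a gene and are not independent, and the 21 were 8 without Hi replicate 1 and 6 without Hi replicate 2. With 2 arrays against 2, an exact two-sided permutation test of a single gene could not go below p = 0.333. The plot of differences by complex shows the 58 genes.

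**Figure D1:**
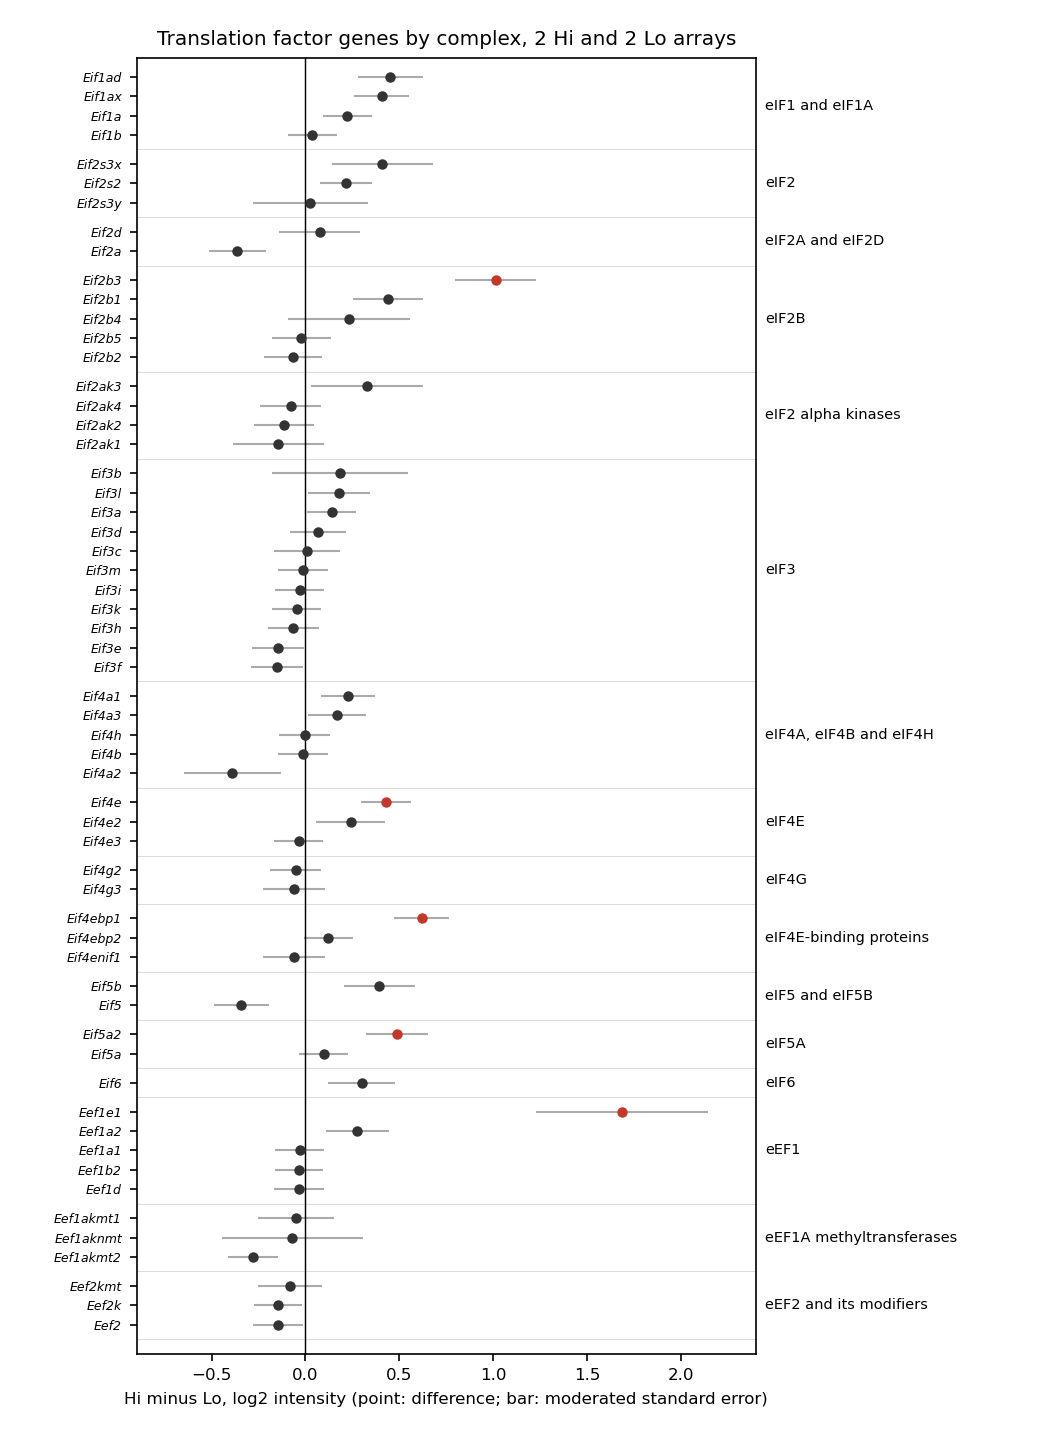
Hi minus Lo difference in log2 intensity (x axis) of 58 translation factor genes, 1 row per gene, grouped by complex; points are fitted differences of the brightest probe set, bars the moderated standard error, and red marks the 5 genes with an unadjusted p under 0.05 and arrays that do not overlap. The eIF3, eIF4G and eEF2 rows sit close to 0, while Eif2b3 and Eef1e1 stand out at 1.01 and 1.69.

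Other features of the samples moved with the groups. The Hi arrays correlated at r = 0.990, the Lo arrays at r = 0.983 and Hi with Lo arrays at r = 0.972 to 0.976, a description across probe sets that are not independent of each other. The summed intensity of 7 of 7 erythroid markers was 12420 to 14540 in Hi, against 2148 to 2960 in Lo, with Hba-a1 and Alas2 no brighter on any array than control probe sets for transcripts that were not added (the dim limit). That of 6 of 6 granulocyte and monocyte markers was 45450 to 49740 in Hi, against 16890 to 18750 in Lo, and that of 6 of 6 cell cycle genes 18250 to 18360 in Hi, against 8293 to 10660 in Lo. A sum need not hold for each gene. The cell cycle gene Mki67 had 11.99 and 12.03 in Hi, against 12.19 and 11.43 in Lo, and overlapped. The 6 of 6 long-term stem cell markers summed to 7467 to 7669 in Hi, against 16300 to 17940 in Lo. The 6 T cell markers (Cd8b1 dim on all arrays) summed to 477 to 658 in Hi, against 560 to 588 in Lo, and 3 of 4 B cell markers to 2533 to 2717 in Hi, against 3306 to 3340 in Lo. Of the T cell markers, Cd8a (-1.19 ± 0.19) and Cd3d (-0.77 ± 0.25) lay below in Hi without overlap, and Cd4 (0.35 ± 0.16) above. Cd3e, Cd3g and Cd8b1 overlapped. Of the B cell markers, Ms4a1 and Cd79b lay below in Hi and Cd79a above. Kit, the 1 measured gene of the sort gate, had 11.39 and 11.58 in Hi, against 11.95 and 11.55 in Lo. The Gapdh controls gave a 3′ signal above the 5′ signal by 0.63 and 0.66 in Hi, against 0.74 and 0.78 in Lo, whereas for the Actb controls, at 0.60 and 0.55 in Hi, against 0.84 and 0.57 in Lo, the groups overlapped. The part of these features in the differences below was not tested, and fewer cells of a type cannot be told apart from less RNA per cell.

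Among the factors of start-site selection, the 4 genes named for eIF1 and eIF1A had positive differences (median 0.32, against 53.6% of all genes positive), as had all 8 of their probe sets (against 55.3% of all probe sets), but Eif1b turned to -0.0164 with cyclic loess. None of the 4 passed an adjusted p of 0.05. Eif1ax, the X-linked copy of eIF1A, had 12.63 and 12.68 in Hi, against 12.15 and 12.35 in Lo, a difference of 0.41 ± 0.15 with an adjusted p of 0.281. Its other probe sets had 0.09 ± 0.14 and 0.16 ± 0.14, and the mean of the 3 was 0.22. The autosomal copy Eif1a had 12.22 and 12.18 in Hi, against 11.96 and 11.996 in Lo, a difference of 0.22 ± 0.13, and the mean of its probe sets was 0.26. In both genes the Hi arrays lay above the Lo arrays, but the suffix of the brightest Eif1a probe set marks one that can match more than a single transcript. Eif1ad, which carries an eIF1A-like domain and is not itself an initiation factor of the scanning complex, had 11.66 and 11.86 in Hi, against 11.43 and 11.18 in Lo by its brightest probe set (0.45 ± 0.17). Its second probe set had 11.15 and 11.27 in Hi, against 10.34 and 10.28 in Lo, a difference of 0.90 ± 0.14. Eif1b, the close paralogue of eIF1, had 12.61 and 12.55 in Hi, against 12.53 and 12.55 in Lo, and the groups overlapped.

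For eIF2 itself, Eif2s2, the beta subunit, had 12.75 and 12.75 in Hi, against 12.46 and 12.60 in Lo by its brightest probe set, a difference of 0.22 ± 0.14. Of its 6 probe sets 5 were positive, from 0.22 to 0.55, each with both Hi arrays above both Lo arrays; the other was dim on some arrays and had -0.52 ± 0.69. The gamma subunit is made from an X-linked and a Y-linked gene. The X-linked Eif2s3x had 12.48 and 12.48 in Hi, against 12.40 and 11.73 in Lo, with Lo replicate 2 apart from the other 3 arrays. The difference was 0.41 ± 0.27, and 0.07 without that array. All 3 of its probe sets were positive. The Y-linked Eif2s3y had 10.30 and 10.92 in Hi, against 10.34 and 10.82 in Lo, and the groups overlapped (difference 0.03 ± 0.31). In each group Eif2s3y was higher in replicate 2 than in replicate 1. Xist, which is transcribed from the inactive X chromosome of female cells, had 11.64 and 11.83 in Hi, against 11.80 and 10.82 in Lo, and the Y-linked Kdm5d had 8.04 and 8.27 in Hi, against 8.16 and 7.71 in Lo; both were above the dim limit on all 4 arrays.

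A pair of proteins that can bring initiator tRNA to the ribosome outside the eIF2 route showed no common direction. Eif2a had 10.81 and 10.86 in Hi, against 11.08 and 11.31 in Lo, with both Hi arrays below both Lo arrays and a difference of -0.36 ± 0.15 (adjusted p = 0.332). A second probe set of Eif2a had -0.49 ± 0.14, the only member probe set on the lower side at an unadjusted p under 0.05. All 3 of its probe sets were negative, the last of them dim on all 4 arrays with -0.01 ± 0.17. Eif2d had 11.59 and 11.47 in Hi, against 11.22 and 11.70 in Lo by its brightest probe set, where the groups overlapped. All 6 Eif2d probe sets were positive, of which one was dim on all 4 arrays. The one with the largest difference was dim in Lo, with a signal in Hi at least 1.34-fold higher and an adjusted p of 0.0947, the smallest of all members.

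In the exchange factor eIF2B, Eif2b3, the gamma subunit of its catalytic part, had 10.54 and 10.74 in Hi, against 9.41 and 9.85 in Lo. Its difference of 1.01 ± 0.22, 2.02-fold, had an adjusted p of 0.149, and it stayed between 0.79 and 1.24 over 13 alternatives (adjusted p 0.0822 to 0.481). Eif2b1, the alpha subunit of the regulatory part, had 10.26 and 10.31 in Hi, against 9.66 and 10.03 in Lo (0.44 ± 0.18), again with no overlap. The remaining subunits overlapped between the groups. Eif2b4 had 9.36 and 9.83 in Hi, against 9.01 and 9.71 in Lo, Eif2b2 11.20 and 11.25 in Hi, against 11.17 and 11.41 in Lo, and Eif2b5, the catalytic epsilon subunit, 10.48 and 10.57 in Hi, against 10.43 and 10.67 in Lo. Within 1 complex, then, the fitted differences ran from -0.07 to 1.01. The 5 subunits had a median of 0.23, which was 0.46 without Hi replicate 1, -0.003 without Hi replicate 2, -0.12 without Lo replicate 1 and 0.58 when Lo replicate 2 was left out.

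All 4 eIF2 alpha kinase genes overlapped between the groups by their brightest probe sets. Eif2ak1 encodes the haem-regulated kinase of the erythroid lineage and had 10.27 and 10.22 in Hi, against 10.10 and 10.68 in Lo. Eif2ak2 encodes the double-stranded RNA kinase PKR and had 10.67 and 10.43 in Hi, against 10.71 and 10.62 in Lo. Their differences were -0.14 ± 0.24 and -0.11 ± 0.16. Among their other probe sets, an Eif2ak1 one had -0.46 ± 0.24 and an Eif2ak2 one -0.34 ± 0.13, each with both Hi arrays below both Lo arrays. A further Eif2ak1 one had 0.16 ± 0.15 with both Hi arrays above, and a further Eif2ak2 one 0.09 ± 0.20 with overlap. Eif2ak3, the kinase PERK of the endoplasmic reticulum, had 9.55 and 9.92 in Hi, against 9.73 and 9.07 in Lo (0.33 ± 0.30), and Eif2ak4, the amino acid sensor GCN2, 8.95 and 9.07 in Hi, against 8.97 and 9.21 in Lo (-0.08 ± 0.16). By the brightest probe sets, the difference of each of the 4 genes changed sign under at least 1 alternative. For Eif2ak1, Eif2ak3 and Eif2ak4 this was so without Lo replicate 2, for Eif2ak2 without Hi replicate 2.

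The 11 measured genes of eIF3, the scaffold of the initiation complex, had a median difference of -0.01 by their brightest probe sets, 5 positive and 6 negative, and a range from -0.15 to 0.18. Eif3f had 13.42 and 13.47 in Hi, against 13.53 and 13.67 in Lo, Eif3e 12.80 and 12.86 in Hi, against 12.91 and 13.05 in Lo and Eif3k 13.35 and 13.31 in Hi, against 13.35 and 13.40 in Lo. In these 3 genes the Hi arrays lay below both Lo arrays, with differences of -0.15, -0.15 and -0.05. Eif3a, the largest subunit, had 12.47 and 12.49 in Hi, against 12.37 and 12.30 in Lo, and Eif3l 12.35 and 12.44 in Hi, against 12.08 and 12.35 in Lo, and both lay above in Hi with 0.14 and 0.18. Eif3b, an RNA-binding subunit of the core, had 11.19 and 11.34 in Hi, against 11.55 and 10.61 in Lo; its Lo arrays lay on both sides of the Hi arrays, and its difference without the first of them was 0.66, without the second -0.29. Each of the other subunits Eif3c, Eif3d, Eif3h, Eif3i and Eif3m overlapped, with differences from -0.06 to 0.07.

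In the cap-binding complex eIF4F, Eif4e, the cap-binding protein itself, stood on the Hi side in each of its 4 probe sets. The brightest had 12.17 and 12.17 in Hi, against 11.78 and 11.71 in Lo, a difference of 0.43 ± 0.13, 1.35-fold, with an adjusted p of 0.229. Another had 11.40 and 11.39 in Hi, against 10.58 and 10.43 in Lo and a difference of 0.89 ± 0.14 (adjusted p = 0.108). Of the remaining pair, one had 8.54 and 9.35 in Hi, against 8.30 and 8.49 in Lo, and the other was dim in Lo, with a signal in Hi at least 1.20-fold higher. In none of the 4 did the groups overlap. The Hi replicates of the brighter pair of probe sets lay within 0.01 of each other. Over 13 alternatives the brightest probe set, or the mean of all, gave 0.39 to 0.63 (adjusted p 0.0994 to 0.628).

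Among the paralogues, Eif4e2, a cap-binding protein that represses translation, had 12.20 and 12.23 in Hi, against 11.79 and 12.16 in Lo, with the Hi arrays just above (0.24 ± 0.18) and 4 of 5 probe sets positive. Eif4e3 had 10.26 and 10.25 in Hi, against 10.32 and 10.26 in Lo, with a difference of -0.04 ± 0.13, and 0.06 after the arrays were shifted to 1 median. The helicase gene Eif4a1 had 13.58 and 13.56 in Hi, against 13.25 and 13.44 in Lo (0.23 ± 0.15), and its paralogue Eif4a2, with a difference of the opposite sign, had 11.09 and 11.28 in Hi, against 11.88 and 11.27 in Lo (-0.39 ± 0.26). The Eif4a2 arrays overlapped, as Lo replicate 2 lay within the Hi values, and the difference was -0.0893 without Lo replicate 1 and -0.69 when Lo replicate 2 was left out. Eif4a3, a subunit of the exon junction complex, was near the dim limit in both groups with 5.15 and 5.06 in Hi, against 5.05 and 4.83 in Lo. The helicase partners Eif4b and Eif4h differed by -0.01 ± 0.13 and -0.004 ± 0.14. Of the scaffolds, Eif4g2, which lacks the eIF4E-binding part, had 12.58 and 12.65 in Hi, against 12.61 and 12.71 in Lo, and Eif4g3 10.44 and 10.42 in Hi, against 10.34 and 10.64 in Lo, and both overlapped. All 5 Eif4g2 probe sets were negative, though the smallest difference (-0.0043) came from a probe set dim on all 4 arrays. A bright one of the 5 had 12.36 and 12.46 in Hi, against 12.74 and 12.54 in Lo, with no overlap (-0.225 ± 0.15). Of the 4 Eif4g3 probe sets, 2 were positive and 2 negative.

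The repressors that compete with eIF4G for eIF4E did not share a size of difference. Eif4ebp1 had 11.34 and 11.48 in Hi, against 10.72 and 10.86 in Lo, a difference of 0.62 ± 0.15, 1.54-fold, with an adjusted p of 0.170. A second probe set had 11.28 and 11.38 in Hi, against 10.92 and 10.78 in Lo (0.48 ± 0.14). The other went the opposite way with 6.91 and 7.003 in Hi, against 7.95 and 7.21 in Lo (-0.62 ± 0.29, unadjusted p = 0.103), and the mean over the 3 was 0.16. Eif4ebp2 had 11.71 and 11.69 in Hi, against 11.55 and 11.60 in Lo, with the Hi arrays above by 0.12 ± 0.13 and 4 of 5 probe sets positive. Eif4enif1, which carries eIF4E into the nucleus, overlapped with -0.06 ± 0.16. The plot of values by array shows these genes and others.

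**Figure D2:**
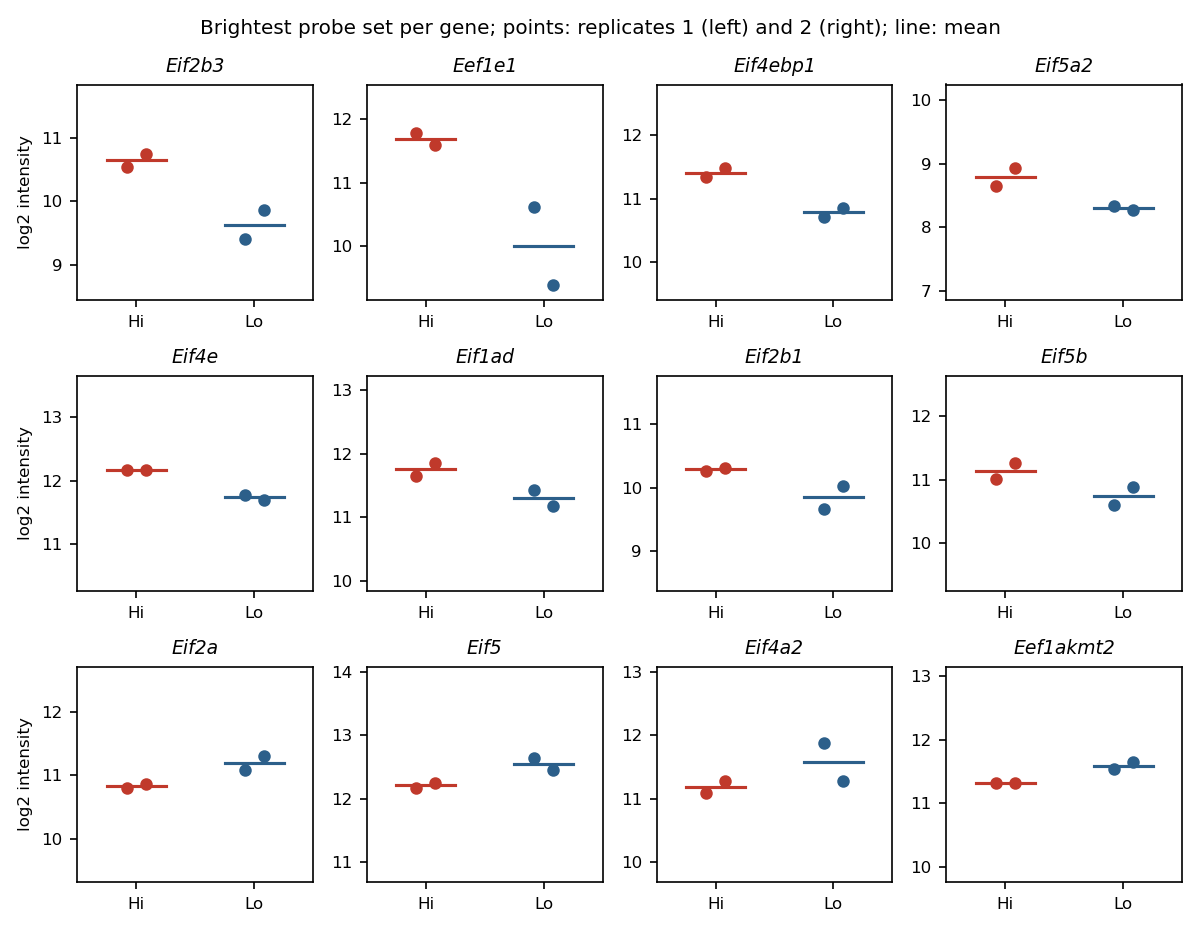
Log2 intensity (y axis, each panel spanning the same range) of 12 factor genes by their brightest probe set in Hi (left, red) and Lo (right, blue); points are single arrays and lines group means. The Hi arrays lie above the Lo arrays in the upper 8 panels and below them in Eif2a, Eif5 and Eef1akmt2, and Eif4a2 overlaps.

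Among the factors of subunit joining, Eif5, which makes eIF2 hydrolyse its GTP, differed with the probe set. The brightest had 12.18 and 12.25 in Hi, against 12.65 and 12.46 in Lo, a difference of -0.34 ± 0.15 with no overlap, and another had 10.60 and 10.73 in Hi, against 10.11 and 10.15 in Lo, a difference of 0.53 ± 0.14, also with no overlap. Of its 5 probe sets 3 were positive and 2 negative, and their mean was 0.12. Eif5b, the GTPase that joins the large subunit, had 11.02 and 11.26 in Hi, against 10.60 and 10.90 in Lo (0.39 ± 0.19), and a second probe set had 9.99 and 9.71 in Hi, against 8.91 and 8.95 in Lo (0.92 ± 0.17); all 3 were positive.

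Eif5a encodes the factor that carries the amino acid hypusine and helps the ribosome through difficult peptide bonds. Its brightest probe set had 13.40 and 13.42 in Hi, against 13.34 and 13.29 in Lo, a difference of 0.10 ± 0.13. Its other probe set had 12.43 and 12.47 in Hi, against 11.65 and 11.41 in Lo, a difference of 0.92 ± 0.15 with an adjusted p of 0.116. By their suffixes, both can hybridise with more than a single transcript, so neither value is certain to be of Eif5a alone. The same holds for the brightest probe sets of 10 of the 58 genes, among them Eif1a, Eif2s3x, Eif3e, Eef1d and Eef2k. The paralogue Eif5a2 had 8.64 and 8.93 in Hi, against 8.33 and 8.27 in Lo (0.49 ± 0.17, adjusted p = 0.260), while its second probe set had 7.25 and 6.08 in Hi, against 7.51 and 7.19 in Lo (-0.69 ± 0.45), and the mean of both was -0.10. Eif6, which keeps the large subunit from joining too early, had 11.68 and 11.74 in Hi, against 11.24 and 11.59 in Lo (0.30 ± 0.18), and its second probe set had 0.44 ± 0.17, with no overlap in either.

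By their brightest probe sets, the elongation factor genes Eef1a1, Eef1b2, Eef1d and Eef2 did not differ by much more than their errors. Eef1a1, which delivers aminoacyl-tRNA, had 13.997 and 14.02 in Hi, against 14.04 and 14.04 in Lo, a difference of -0.03 ± 0.13. These values lie close to the highest intensity on the arrays (14.37 to 14.42). Eef1b2 and Eef1d, subunits of the exchange factor for eEF1A, differed by -0.03 ± 0.13 and -0.03 ± 0.13. Eef2 had 12.996 and 13.09 in Hi, against 13.15 and 13.23 in Lo, a difference of -0.15 ± 0.14. Among these genes, Eef1a1, Eef1b2 and Eef2 had both Hi arrays below both Lo arrays. Eef1a1 turned to 0.06 after the arrays were shifted to 1 median, and Eef2 to 0.06 with the mean of its probe sets, of which the other was dim on all 4 arrays. After that shift Eef1b2 and Eef1d turned to 0.06 as well, and Eef1d had 0.17 with the mean of its 4 probe sets. Eef1a2, the paralogue known from muscle and neurons, had 6.98 and 6.95 in Hi, against 6.54 and 6.84 in Lo (0.28 ± 0.17), with no overlap.

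Eef1e1 had the largest difference of the 58 genes, with 11.78 and 11.60 in Hi, against 10.62 and 9.39 in Lo. The difference was 1.69 ± 0.46, 3.22-fold, with an adjusted p of 0.197. Despite its name, its protein (also called AIMP3) is a scaffold of the complex of aminoacyl-tRNA synthetases. The Lo arrays lay far apart, and leaving out Lo replicate 2 gave a difference of 1.07, leaving out Lo replicate 1 one of 2.30. A single probe set stands for this gene. The 5 eEF1-named genes thus ran from -0.03 to 1.69, with a median of -0.03, or 0.06 after the shift to 1 median.

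By their brightest probe sets, all 5 enzymes that modify the elongation factors had a negative difference, but Eef1akmt1, Eef1aknmt and Eef2kmt turned positive after the shift to 1 median. Eef2k, the kinase that inactivates eEF2, had 13.07 and 13.05 in Hi, against 13.20 and 13.21 in Lo by its brightest probe set, a difference of -0.15 ± 0.13 without overlap. The suffix of that probe set marks one that can match more than a single transcript, so its value may not be of Eef2k alone. The other Eef2k probe sets differed by -0.03 ± 0.18 and 0.02 ± 0.17 and overlapped. The methyltransferase gene Eef2kmt had -0.08 ± 0.17. Among the eEF1A methyltransferases, Eef1akmt2 had 11.31 and 11.31 in Hi, against 11.54 and 11.65 in Lo, a difference of -0.28 ± 0.13 with no overlap. Eef1akmt1 had -0.05 ± 0.20 and Eef1aknmt -0.07 ± 0.38, and both overlapped. The other Eef1aknmt probe sets had 0.27 ± 0.16, with no overlap, and 0.62 ± 0.46, dim on some arrays, and the mean of its 3 was 0.27.

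Of the 58 genes, 42 had more than 1 probe set, and in 23 of these the probe sets differed in sign. That count includes dim probe sets. In Eif3e and Eif3h, for example, the only positive probe sets were dim on all 4 arrays. The same share over all genes was not counted. In 38 genes with another probe set above the dim limit on at least 1 array, the mean of the other probe sets was more positive than the brightest in 24 (63.2%). Over all 6458 such genes of the array it was so in 60.8%, so the share among the factors was close to that of other genes. The gap was wide in Eif4a1, where the brightest had 0.23 and another, with 13.06 and 13.07 in Hi, against 12.47 and 11.62 in Lo, had 1.02 ± 0.33. In Eif3a the brightest had 0.14 and another 0.86 ± 0.24, with 10.35 and 10.25 in Hi, against 9.72 and 9.15 in Lo. All 4 Eif3a probe sets and all 3 Eif4a1 probe sets were positive. In both of these probe sets Lo replicate 2 was the lowest array. The members also varied more between the Lo than between the Hi arrays, with a larger SD in Lo in 44 of 58 genes (75.9%, against 61.9% of all genes). Their median SD was 0.04 in Hi and 0.14 in Lo, against 0.11 in Hi and 0.17 in Lo over all genes. The members thus varied less than all genes in both groups.

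**Figure D3:**
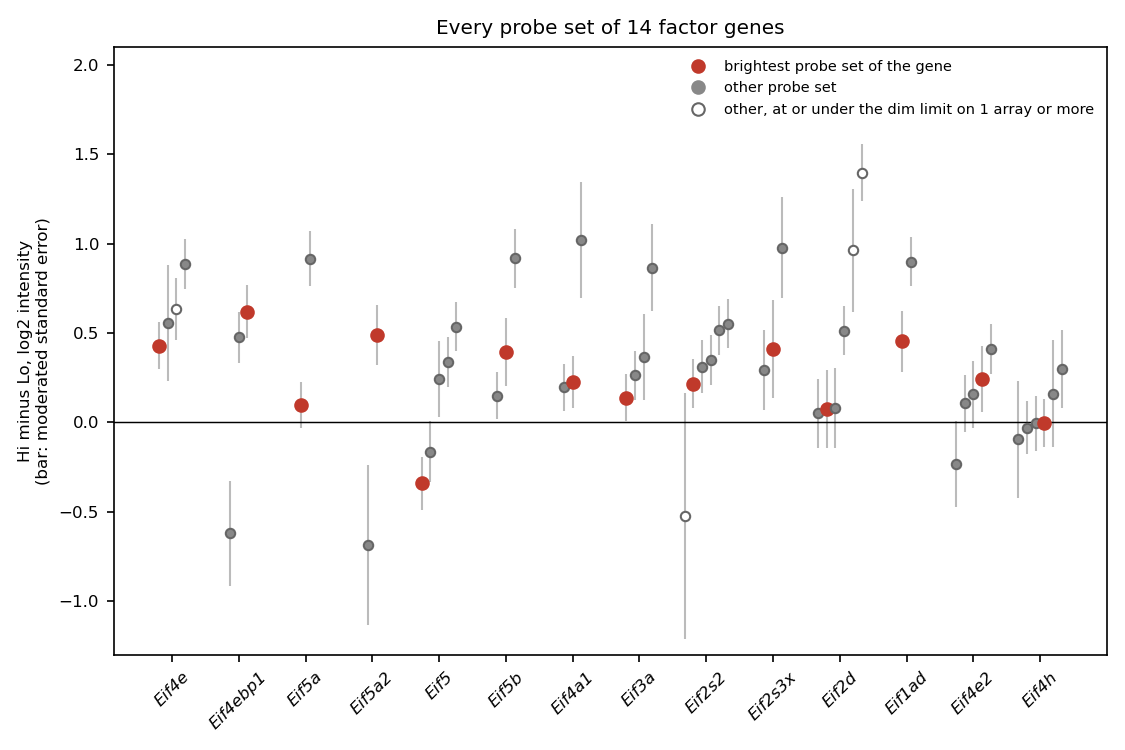
Hi minus Lo difference in log2 intensity (y axis) of every probe set of 14 factor genes (x axis), with bars for the moderated standard error; red is the brightest probe set of the gene, grey the others, and white those at or under the dim limit on 1 array or more. All Eif4e points lie above 0, while Eif4ebp1, Eif5a2 and Eif5 have points on both sides.

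c-Myc with its partner Max binds the E-box CACGTG, a sequence that is its own reverse complement. RefSeq promoters of assembly GRCm38.p6, from 250 bases before to 50 bases after each start, were held for 47 of the 58 genes (62 promoters). CACGTG was in 14 of the 62 promoters (22.6%), against 8.74% of the promoters of genes on the array and 7.15% of all promoters in the table. By gene this was 12 of 47 (25.5%), against 10.3% of array genes and 8.09% of all genes. The related CACGCG, read on both strands, was in 12.9% of the members' promoters, against 13.9% for array genes and 9.27% for all. The 12 genes with CACGTG had a median difference of 0.02 (6 positive, 6 negative) and the 35 without it one of 0.03 (19 positive, 16 negative). A match shows only that these letters are there, and c-Myc binding was not measured here.

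Of the 5 genes on the higher side at an unadjusted p under 0.05, Eif2b3 and Eif4ebp1 had no promoter held. Whether they carry CACGTG was thus not searched. Eif5a2, another of the 5, had a difference of -0.10 once its probe sets were averaged. The promoters of Eif4e and Eif5a2 are shown because each holds CACGTG at 2 places and both were among these 5 genes. In Eif4e, at the second of its listed starts (the window of the first holds no CACGTG) and chr3:138527018-138527317 on the + strand, they begin 228 and 64 bases before the start, and in Eif5a2, at chr3:28781027-28781326 on the + strand, 142 and 117 bases before it. Eef2, at chr10:81176381-81176680 on the + strand, is shown because it holds 1 CACGTG, 43 bases before the start, with a difference of -0.15. Eef1e1, at chr13:38658979-38659278 on the - strand, is shown because it had the largest difference and holds neither sequence in this window. Sequences run 5′ to 3′ on the strand of the gene, and capitals mark CACGTG or CACGCG on either strand.
Eif4e: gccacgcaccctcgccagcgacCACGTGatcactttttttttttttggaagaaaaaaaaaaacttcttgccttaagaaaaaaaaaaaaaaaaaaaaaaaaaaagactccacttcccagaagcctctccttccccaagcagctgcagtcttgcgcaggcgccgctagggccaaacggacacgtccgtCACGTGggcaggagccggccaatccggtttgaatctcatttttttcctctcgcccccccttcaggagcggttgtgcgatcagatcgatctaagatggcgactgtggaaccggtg
Eif5a2: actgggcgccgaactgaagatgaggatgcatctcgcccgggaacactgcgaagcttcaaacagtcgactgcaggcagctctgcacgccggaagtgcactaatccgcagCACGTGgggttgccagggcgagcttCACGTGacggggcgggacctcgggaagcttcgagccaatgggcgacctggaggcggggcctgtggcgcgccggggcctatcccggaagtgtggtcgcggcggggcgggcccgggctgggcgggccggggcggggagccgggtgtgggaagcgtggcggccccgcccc
Eef2: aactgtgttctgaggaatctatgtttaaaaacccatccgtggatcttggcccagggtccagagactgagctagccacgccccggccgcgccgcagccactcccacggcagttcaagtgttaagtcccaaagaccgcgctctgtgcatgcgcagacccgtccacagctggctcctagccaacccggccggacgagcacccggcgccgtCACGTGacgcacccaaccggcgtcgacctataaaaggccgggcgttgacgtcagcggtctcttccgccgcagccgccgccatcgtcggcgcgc
Eef1e1: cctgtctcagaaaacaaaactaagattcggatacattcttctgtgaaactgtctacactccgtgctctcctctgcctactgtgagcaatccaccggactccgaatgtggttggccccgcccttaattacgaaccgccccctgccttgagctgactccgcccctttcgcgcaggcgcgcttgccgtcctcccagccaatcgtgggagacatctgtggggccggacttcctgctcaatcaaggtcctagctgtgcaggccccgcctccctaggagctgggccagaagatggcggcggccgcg

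Neighbouring steps of translation were read from lists of other genes, by the brightest probe set of each, and limma called 0 of their members at an adjusted p of 0.05. Beside their counts at an unadjusted p under 0.05 stand the 9.25% of all genes on the higher and 11% on the lower side, and beside their signs the 53.6% of all genes with a positive difference. With 8 to 19 genes a list, the counts were small, and no difference from these shares was tested. The cytosolic aminoacyl-tRNA synthetases, whose scaffold Eef1e1 belongs to, had 17 of 19 positive differences (median 0.32, and 0.15 without Lo replicate 1) and 13 genes with both Hi arrays above both Lo arrays, against 30% of all genes. At an unadjusted p under 0.05, 2 were on the higher side and 0 on the lower. Eprs had 11.33 and 11.26 in Hi, against 10.73 and 10.36 in Lo (0.75 ± 0.19), and at the other end Wars had 10.53 and 10.60 in Hi, against 10.90 and 10.92 in Lo (-0.35 ± 0.13). Of 9 termination and recycling genes, 3 were on the higher and 1 on the lower side at an unadjusted p under 0.05 (median 0.34, and 0.56 with the mean of probe sets). The release factor gene Etf1 had 12.03 and 12.20 in Hi, against 11.50 and 11.04 in Lo (0.84 ± 0.22), while Gspt2, a paralogue of its partner, had 6.95 and 7.33 in Hi, against 8.36 and 7.86 in Lo (-0.97 ± 0.26).

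Of 9 genes that modify eIF5A or eEF2, 7 had a positive difference (median 0.31, 0.16 without Lo replicate 1 or with the mean of probe sets, and 0.19 without Lo replicate 2), with 1 on the higher side at an unadjusted p under 0.05. That gene was Dhps, which starts hypusine synthesis on eIF5A, with 11.03 and 10.88 in Hi, against 10.41 and 10.48 in Lo (0.51 ± 0.14), named here with its values known. Dnajc24 and Dph6, both of the diphthamide route of eEF2, marked the ends of the list with 0.57 ± 0.31 and -0.10 ± 0.14. Dph1, among the 7 positive genes, was dim on all 4 arrays. Of 9 other helpers of initiation, 2 were on the higher side at an unadjusted p under 0.05 and 0 on the lower (median 0.09). That median was 0.28 with the mean of probe sets, 0.18 after the shift to 1 median, 0.05 with cyclic loess, 0.06 without Hi replicate 2, 0.16 without Lo replicate 1 and 0.0178 without Lo replicate 2. Bzw2, a mimic of eIF5, had 11.82 and 11.79 in Hi, against 10.91 and 10.47 in Lo (1.12 ± 0.20, 2.17-fold, but 0.29 with the mean of its probe sets), and Paip2, which inhibits the poly(A)-binding protein, 12.80 and 12.93 in Hi, against 13.07 and 13.20 in Lo (-0.27 ± 0.14). Of 8 mitochondrial translation factors, 2 were on the higher side at an unadjusted p under 0.05 (median 0.21, 0.0818 with the mean of probe sets and 0.14 without Lo replicate 1). The elongation factor gene Tsfm had 9.42 and 9.42 in Hi, against 8.56 and 8.58 in Lo (0.85 ± 0.13) and the initiation factor gene Mtif2 9.63 and 9.77 in Hi, against 9.74 and 10.25 in Lo (-0.30 ± 0.23).

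Of 10 genes of the integrated stress response, which follows phosphorylation of eIF2 alpha, 0 were on the higher and 3 on the lower side at an unadjusted p under 0.05 (median -0.18), and the median was -0.35 without Hi replicate 1, 0.0387 without Hi replicate 2 and -0.0846 after the shift to 1 median. Trib3 had 6.57 and 6.78 in Hi, against 8.72 and 9.19 in Lo, a difference of -2.28 ± 0.22 with an adjusted p of 0.0846. Fitted over genes instead of probe sets, limma called it lower (adjusted p = 0.0409 with 1 probe set per gene and 0.0317 with the mean of all probe sets). Asns, the asparagine synthetase gene, had 11.16 and 11.08 in Hi, against 10.08 and 10.74 in Lo (0.71 ± 0.27), and Atf4, the central transcription factor, 12.27 and 12.40 in Hi, against 12.03 and 12.23 in Lo (0.20 ± 0.16). Ppp1r15a, whose protein helps a phosphatase act on eIF2 alpha, had 8.59 and 8.70 in Hi, against 10.03 and 10.48 in Lo (-1.61 ± 0.21). Both it and Atf4 are named here with their values known beforehand. Chac1, another of the 10 genes, was dim on all 4 arrays. Of 14 genes of mTOR and cap-binding control, 1 was on the higher and 2 on the lower side at an unadjusted p under 0.05 (median -0.09, -0.0296 without Hi replicate 1, -0.14 without Lo replicate 1, -0.0294 with the mean of probe sets and 0.0038 after the shift to 1 median). Rheb, which activates mTOR, had 11.83 and 11.82 in Hi, against 11.49 and 11.33 in Lo (0.41 ± 0.14), and Ddit4, which restrains it, 11.18 and 11.36 in Hi, against 12.62 and 12.25 in Lo (-1.16 ± 0.19).

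**Figure D4:**
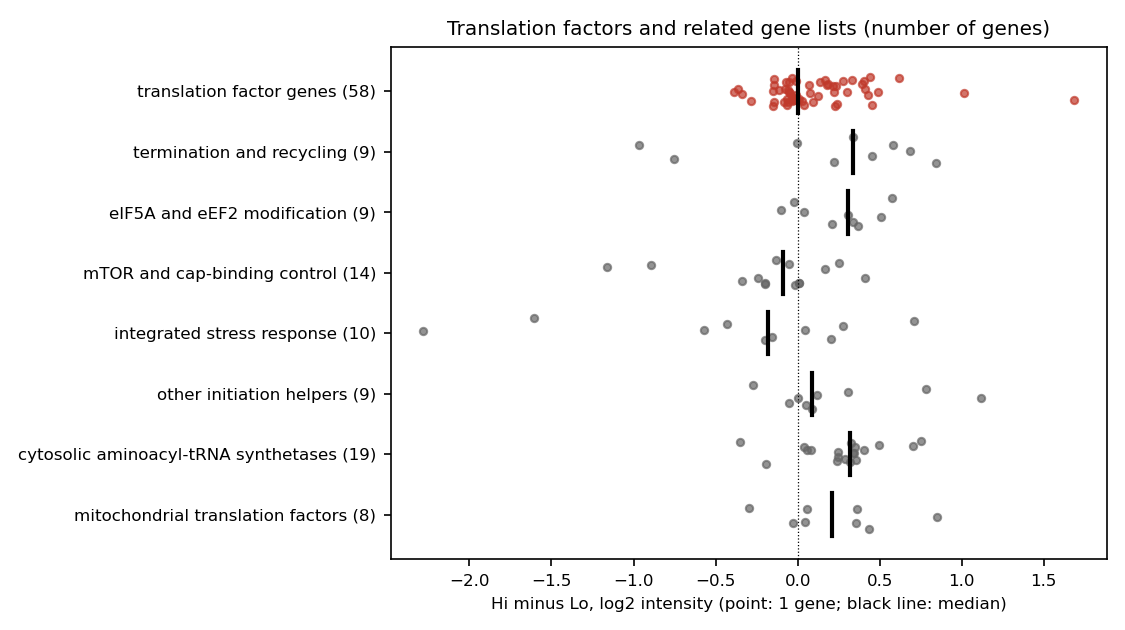
Hi minus Lo difference in log2 intensity (x axis) of the 58 translation factor genes and of 7 lists of related genes (rows); each point is 1 gene by its brightest probe set and black lines are medians. The synthetases and the termination genes have medians of 0.32 and 0.34, and the factors one of 0.00.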

How the data were processed

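Expression was measured in 2 Hi and 2 Lo samples. The authors deposited linear intensities, 1 for each probe set and sample, and per the submitters' processing notes RMA was used; for its version and settings, not given in the sources used here, nothing was assumed. RMA brings arrays to a like scale, so the values do not show a difference in the total RNA of a cell; the deposited arrays still differed in median log2 intensity (5.70 and 5.71 in Hi, 5.78 and 5.82 in Lo). The intensities were log2-transformed with no offset. Of 45101 probe sets, 64 controls were left out; the platform annotation gave 1 symbol to 34945, and Entrez identifiers matched 34741 to a reference gene table without changing a symbol. A gene was represented by its probe set with the highest mean (the brightest). limma 3.58.1 in R 4.3.3 (lmFit, eBayes, no block, two-sided) was fitted over all 45037 probe sets with Benjamini-Hochberg adjustment; residual degrees of freedom were 2, and the prior added 1.976. The fit was tested on simulated data.

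The dim limit on each array was the brightest of 27 control probe sets for transcripts not added (4.74 to 4.87 on the log2 scale). Of the 155 member probe sets, 16 were at or under it on all 4 arrays. An at-least fold sets the dim group at that limit. Arrays carry no depth; their number limits the precision.

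Named were members with an unadjusted p under 0.05 and no overlap, the extremes of each complex and related list, and factors known for control or as paralogues; any other gene was chosen after its values were seen, members mostly to complete a complex. The members, lists and rules were chosen with earlier results of these data known. Promoters were searched in Python 3.11.15. The replicate numbers were not taken to pair the samples, since the labels name nothing shared and the deviations of same-numbered arrays correlated at r = 0.07 over all probe sets.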

Additional observations from a re-analysis of the deposited data

How the results depend on the processing

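In all 13 alternatives for genes limma called 0 member genes at an adjusted p of 0.05, and in all 11 for probe sets 0 member probe sets. The 5 genes on the higher side at an unadjusted p under 0.05 became 8 with an offset of 16, 8 with the arrays shifted to 1 median, 9 with each gene's probe sets averaged, 8 with a trended robust prior and 3 with a replicate block; the 0 on the lower side became 3 with the offset, 3 with the trended prior and 2 without moderation. Leaving out single arrays gave 0 to 6 and 0 to 2 genes, and, for probe sets, 6 (without Hi replicate 2) to 21 on the higher and 0 to 6 (without Lo replicate 1) on the lower side, where the 1 of all arrays became 5 with the offset and 4 with the trended prior or without moderation. The replicate block, in which the numbers are not shown to pair the samples, changed no other call. Genes with both Hi arrays below both Lo arrays numbered 4, against 11, after the shift to 1 median.

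The median over the member genes, 0.0014, was 0.10 after the shift to 1 median, -0.0387 with cyclic loess and 0.0719 with the mean of probe sets, and ran from -0.0269 to 0.0637 without single arrays. The shift moved the median of all genes by 0.09, to 0.12, and cyclic loess to -0.01. After the shift the medians were 0.41 for eIF1 and eIF1A, -0.0016 for the eIF2 alpha kinases, 0.0908 for eIF4A, eIF4B and eIF4H, 0.34 for eIF4E, 0.12 for eIF5 and eIF5B, 0.39 for eIF5A, 0.0634 for eEF1 and -0.0503 for eEF2. With cyclic loess they were -0.0681 for eIF4A, eIF4B and eIF4H, 0.20 for eIF4E, -0.11 for eEF1 and -0.21 for eEF2. With the mean of probe sets they were 0.24 for eIF1 and eIF1A, 0.11 for eIF2A and eIF2D, 0.0537 for eIF4A, eIF4B and eIF4H, 0.14 for eIF4E, 0.30 for eIF5 and eIF5B, 0.20 for eIF5A, 0.17 for eEF1 and -0.0508 for eEF2. Without single arrays they ran from -0.12 to 0.58 for eIF2B, -0.14 to 0.0219 for the eIF2 alpha kinases, -0.0377 to 0.0462 for eIF4A, eIF4B and eIF4H, 0.056 to 0.39 for eIF4E, -0.33 to -0.0394 for the eEF1A methyltransferases and -0.19 to -0.10 for eEF2. They also ran from 0.15 to 0.33 for eIF2, -0.32 to 0.0325 for eIF2A and eIF2D, -0.0643 to 0.03 for eIF3, -0.16 to 0.0435 for eIF4G, -0.0537 to 0.11 for eIF5 and eIF5B, and 0.13 to 0.47 for eIF6. The cause of these shifts was not tested. The share of all genes with CACGTG was 8.09%, or 10.3% among genes on the array, and that with CACGCG 10.5% and 16.2%. The number of arrays, 2 per group, limits how small a difference could be told from 0.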
